A study of Danio rerio with 6 samples.

Results

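The genes described here are 29 genes of the endocardium and of the injured zebrafish heart, read in the RNA of cardiac endothelial cells 7 days after the ventricle was cut. They were taken by name, and 32 gene IDs among the 32520 in each count table carry those names. Both KLF11 IDs stand for klf11a, both HAPLN1 IDs that are not hapln1a stand for hapln1b, and both POSTN IDs stand for postnb, because the name table does not separate these copies. Of the 32 IDs, 30 had at least 1 count and 13 had enough counts in enough libraries to be tested, against 3792 tested IDs in the whole table.

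The endocardium is the endothelial lining of the heart chambers. The injured heart is known to switch on signals that act on its muscle, some of them in the endocardium and some in other cells. Among these signals are retinoic acid, neuregulin, insulin-like growth factor and cytokines of the interleukin-6 family. Krüppel-like factors are zinc-finger transcription factors that endothelial cells raise under blood flow, and Nfat and Gata factors belong to the program that builds endocardium and valves. Brg1, the ATPase of the SWI/SNF complex, moves nucleosomes and so affects which genes can be transcribed.

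DNK fish carried 3 transgenes in the Tu strain: a ubi-driven, loxP-stopped dominant-negative Xenopus Brg1, kdrl:CreER and kdrl:eGFP. CtrlK fish carried the Brg1 transgene and kdrl:eGFP but no CreER, per the treatment protocol. That protocol gives both groups 4-hydroxytamoxifen for 3 days before resection, whereas the sample labels call CtrlK untreated and the design text calls it wild-type sibling. Effects of CreER, and of 4-hydroxytamoxifen if CtrlK did not receive it, cannot be told apart from that of dominant-negative Brg1. Green cells were sorted from the ventricles of about 15 hearts. The kdrl promoter is active in endocardium and in vessels, so these are mixed endothelial cells. Each group had 3 libraries, and no label says whether replicates were separate pools of fish, so the p-values cover the spread among libraries that may be technical.

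The libraries were shallow. Counts assigned to genes numbered 200646 to 227373 per DNK library and 174371 to 216713 per CtrlK library, which was 1.47% to 1.48% and 1.08% to 1.27% of all counted reads. These shares did not overlap between the groups, and their part in the results below was not tested. The 32 IDs together held 1539 counts in DNK and 1312 in CtrlK, and igf2b with aldh1a2 made up 49.7% of them. Levels are given as counts or as normalized CPM (counts scaled to a common library size), which are not corrected for gene length, so levels of different genes are not compared. Endothelial marker genes, 15 IDs each with counts, held 0.219% to 0.259% of gene counts in DNK and 0.164% to 0.212% in CtrlK. Of the 9 tested, 7 had a positive log2 fold change, with vwf at 332 counts in DNK and 120 in CtrlK. The other 2, flt1 (96 and 160) and FLT4 (74 and 108), had a negative one.

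Of all 3792 tested genes, 270 passed at an adjusted p below 0.05 (edgeR quasi-likelihood test with Benjamini-Hochberg adjustment), which is 7.12%. Of these, 179 were higher in DNK (4.72%) and 91 lower (2.40%). Of the 13 tested endocardial and regeneration genes, 0 passed by edgeR, 0 by limma-voom and 1, igf2b, by DESeq2. Of all 3792 tested genes, 184 passed by limma-voom and 303 by DESeq2. At an unadjusted edgeR p below 0.05 there were 2, igf2b and aldh1a2, against 24.8% of all tested genes. The log2 fold changes of the 13 ran from −1.91 to 0.84 with a median of 0.03, and the median over all tested genes was −0.07. In 7 of the 13 the value was positive, against 46.9% of all tested genes. The libraries of the 2 groups did not overlap for igf2b, aldh1a2 and nfatc1, which were higher in DNK (16.2% of all tested genes), and for hapln1a, which was lower (14.6%). These 4 are 30.8% of the 13, and non-overlap in either direction was found for 30.8% of all tested genes.

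**Figure D1:**
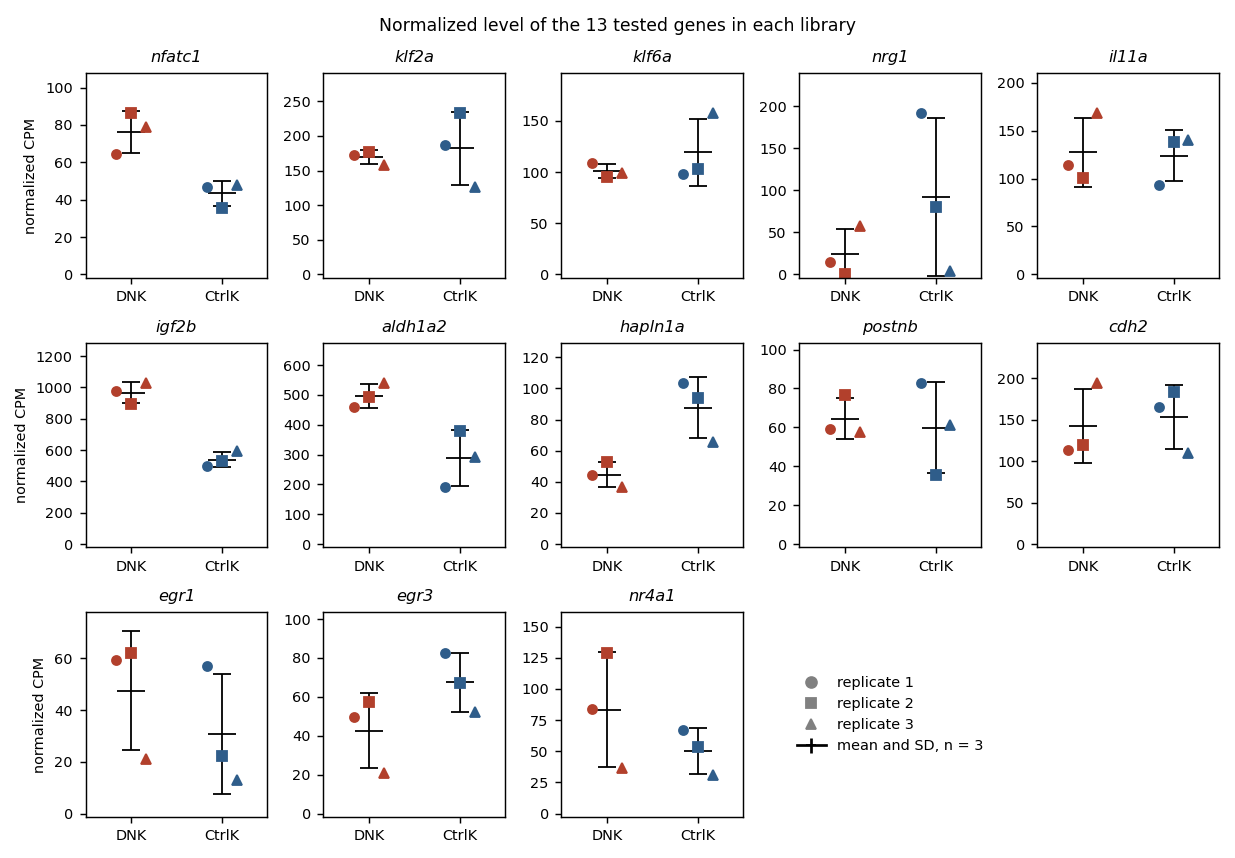
Normalized CPM (vertical axes, linear) of each tested gene in the 3 DNK and the 3 CtrlK libraries. Marker shape gives the replicate number, and bars give the mean and SD (the lower bars of nrg1 reach below the axis). The groups are separate for nfatc1, igf2b, aldh1a2 and hapln1a and overlap for the other 9.

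Secreted signals and the enzyme of a secreted signal come first, because they held the most counts. igf2b, which encodes an insulin-like growth factor that drives cardiomyocyte proliferation in zebrafish, had 974, 895 and 1028 normalized CPM in DNK replicates 1 to 3, against 497, 527 and 594 in CtrlK replicates 1 to 3. Each DNK library was above each CtrlK library, and the spread within a group was small beside the gap. The means were 965 ± 66.8 CPM in DNK and 539 ± 49.9 in CtrlK (SD, n = 3 each), 1.79-fold higher in DNK with a 95% interval of 1.21 to 2.64. The log2 fold change was 0.84 ± 0.26 (SE), with an unadjusted p of 0.00609 and an adjusted p of 0.0650 by edgeR, just outside the threshold. By DESeq2 the adjusted p was 0.0405. Reads outside genes are here all counts in rows that name no gene. Most were reads below the quality minimum (58.0% to 59.2% of all counted reads), so they are not a measure of intergenic RNA. With libraries scaled to them the adjusted p of igf2b was 0.0492 (edgeR), and 291 of all 3792 tested genes passed. Scaled to the 200 most abundant genes the log2 fold change was 0.05 (adjusted p = 0.875, edgeR). That last scaling moved the median of all tested genes to −0.86. Relative to the median of all tested genes igf2b stood 0.91 higher under both that scaling and the main one. A change of scaling shifts all genes nearly alike, so this difference is nearly fixed in advance and does not test the result.

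aldh1a2 encodes the dehydrogenase that makes retinoic acid, and in zebrafish its induction is a mark of the activated endocardium and epicardium. It had 460, 493 and 540 CPM in DNK and 191, 380 and 293 CPM in CtrlK. The DNK libraries were alike, and CtrlK replicate 1 was the lowest of the 6. Its fold was 1.72 (95% interval 1.07 to 2.77, log2 fold change 0.78 ± 0.32 SE), with an unadjusted p of 0.0279 that did not pass adjustment (adjusted p = 0.146, edgeR). Scaled to the 200 most abundant genes, which put the median of all tested genes at −0.86, the log2 fold change was 0.02 (adjusted p = 0.964, edgeR).

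nrg1, which encodes neuregulin, a cardiomyocyte mitogen acting through ErbB receptors, had 14.8, 0 and 57.7 CPM in DNK and 191, 80.4 and 4.37 CPM in CtrlK. These values came from 3, 0 and 11 counts in DNK and 37, 18 and 1 in CtrlK. The groups overlapped, since CtrlK replicate 3 was below 2 of the DNK libraries, and CtrlK replicate 1 held most of the CtrlK counts. The log2 fold change was −1.91 ± 1.01 (SE, adjusted p = 0.261, edgeR). Leaving out 1 library at a time moved it between −3.52, without DNK replicate 3, and −0.81, without CtrlK replicate 1.

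il11a, an injury-induced cytokine of the interleukin-6 family, had 114, 101 and 168 CPM in DNK and 93.1, 138 and 140 CPM in CtrlK. The groups overlapped throughout, with an adjusted p of 0.967 by edgeR for a log2 fold change of 0.03 ± 0.40 (SE) and a 95% interval of the fold of 0.57 to 1.83. lepb, the leptin gene whose enhancer is used to mark the regenerating zebrafish endocardium, had 0 counts in all 6 libraries. Over the 3 libraries of a group a count of 0 allows up to 3 counts. Scaled to the summed gene counts of each group, without TMM scaling, that is 4.61 CPM in DNK and 5.01 CPM in CtrlK. On the scale of normalized CPM the DNK limit is higher and the CtrlK limit lower than these values, so the limits are not compared between groups. edn1, which encodes the vasoconstrictor peptide endothelin, had 0 counts in DNK and 2 in CtrlK.

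**Figure D2:**
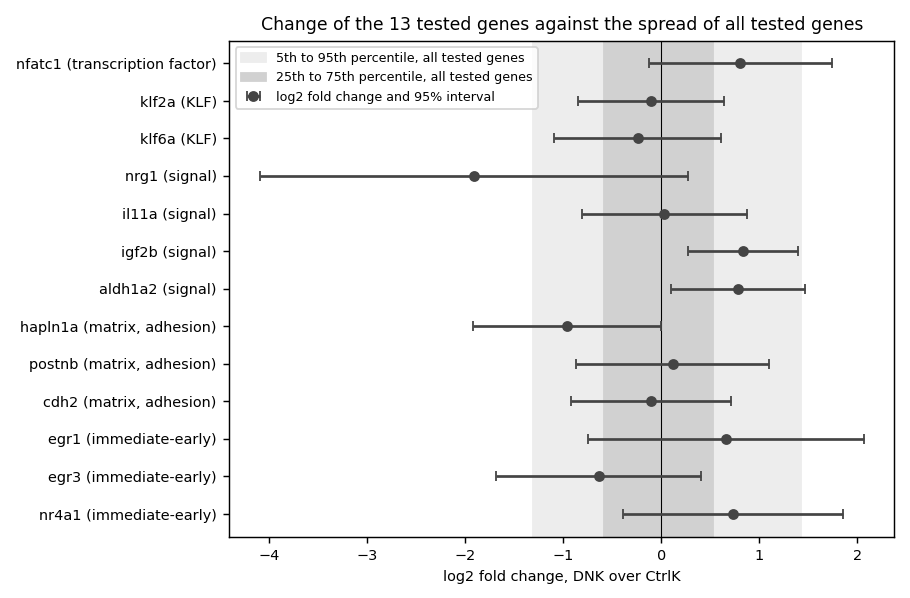
Log2 fold change of DNK over CtrlK (horizontal axis) for the 13 tested genes, with 95% intervals from the edgeR fit. Grey bands give the percentiles of all 3792 tested genes, from −0.58 to 0.53 for the middle band and from −1.31 to 1.43 for the wide one. Only the intervals of igf2b and aldh1a2 leave out 0.

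The partners of these signals were read from lists of their pathways. For these and later lists, 4.72% of all tested genes passed as higher and 2.40% as lower by edgeR. An unadjusted edgeR p below 0.05 was found for 24.8%. Among 8 tested IDs for insulin-like growth factor receptors, binding proteins and adaptors 0 passed by edgeR (1 at an unadjusted p below 0.05), with a median log2 fold change of −0.48. For both IGF1R IDs, copies of the receptor gene, every DNK value lay under every CtrlK value. IGF1R ENSDARG00000034434 had 29.7, 57.4 and 21.0 CPM in DNK and 135, 89.3 and 69.9 CPM in CtrlK (log2 fold change −1.41 ± 0.51 SE, adjusted p = 0.103, edgeR). The copy ENSDARG00000027423 had 176 ± 44.9 CPM in DNK and 289 ± 63.2 in CtrlK (SD, n = 3 each, log2 fold change −0.72 ± 0.34 SE, adjusted p = 0.204, edgeR).

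Among 7 tested IDs of retinoic acid synthesis, transport and reception 0 passed by edgeR (1 at an unadjusted p below 0.05), and their median log2 fold change was −0.32. rarab, a retinoic acid receptor, had 143, 163 and 110 CPM in DNK and 352, 317 and 153 CPM in CtrlK (log2 fold change −0.97 ± 0.38 SE, adjusted p = 0.128, edgeR), with CtrlK replicate 3 inside the DNK range. RDH10 (ENSDARG00000012369), a retinol dehydrogenase of the step before aldh1a2, had 259 ± 10.7 CPM in DNK and 169 ± 27.6 in CtrlK (SD, n = 3 each, log2 fold change 0.62 ± 0.32 SE, adjusted p = 0.252, edgeR). The other RDH10 ID, not tested, had 3 counts in DNK and 21 in CtrlK.

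Of 3 tested neuregulin and ErbB pathway IDs 0 passed by edgeR (1 at an unadjusted p below 0.05), with a median log2 fold change of 0.04. ERBB4 (ENSDARG00000089536), a neuregulin receptor, had 119, 115 and 184 CPM in DNK and 186, 277 and 245 CPM in CtrlK (log2 fold change −0.77 ± 0.35 SE, adjusted p = 0.192, edgeR), so that DNK replicate 3 came within 3 CPM of CtrlK replicate 1. The other ERBB4 IDs, not tested, had 20 and 3 counts in DNK and 29 and 9 in CtrlK. For adam10a, a protease gene, the log2 fold change was 0.25 ± 0.29 (SE, adjusted p = 0.619, edgeR). The single tested endothelin gene, the receptor EDNRA, had one of −0.38 ± 0.34 (SE, adjusted p = 0.509, edgeR).

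In the interleukin-6 family and JAK-STAT list 2 of 9 tested IDs rose (4.72% of all tested genes rose) and 7 did not pass, with a list median of 0.19. SOCS3 (ENSDARG00000026611), a feedback inhibitor of JAK-STAT signalling, had 1706, 1512 and 1348 CPM in DNK and 429, 840 and 651 CPM in CtrlK (log2 fold change 1.25 ± 0.29 SE, adjusted p = 0.0202, edgeR). JAK1, a kinase that carries the signal of these receptors, had 900, 866 and 766 CPM in DNK and 378, 241 and 450 CPM in CtrlK (log2 fold change 1.24 ± 0.30 SE, adjusted p = 0.0258, edgeR). Each DNK library was above each CtrlK library for both genes, and the other SOCS3 ID stood at 0.19 ± 0.50 on the log2 scale (SE, adjusted p = 0.836, edgeR). The Il11 receptor gene il11ra, chosen after its values were seen, stood at −0.50 ± 0.36 on the log2 scale (SE, adjusted p = 0.411, edgeR). SOCS3 no longer passed when DNK replicate 1 was left out (adjusted p = 0.0916, edgeR), nor without DNK replicate 2 (0.0588) or CtrlK replicate 1 (0.0507), nor scaled to the 200 most abundant genes, where the log2 fold change was 0.47. Without 1 library the log2 fold change of SOCS3 was 1.03 to 1.49, and that of JAK1 was 1.03 to 1.47. JAK1 no longer passed when any one of DNK replicates 1, 2 and 3 was left out (adjusted p = 0.0938, 0.0748 and 0.0564, edgeR), nor without CtrlK replicate 1 (0.0507) or 2 (0.0927), nor with library size alone (0.0507), nor scaled to the 200 most abundant genes, where the log2 fold change was 0.46.

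**Figure D3:**
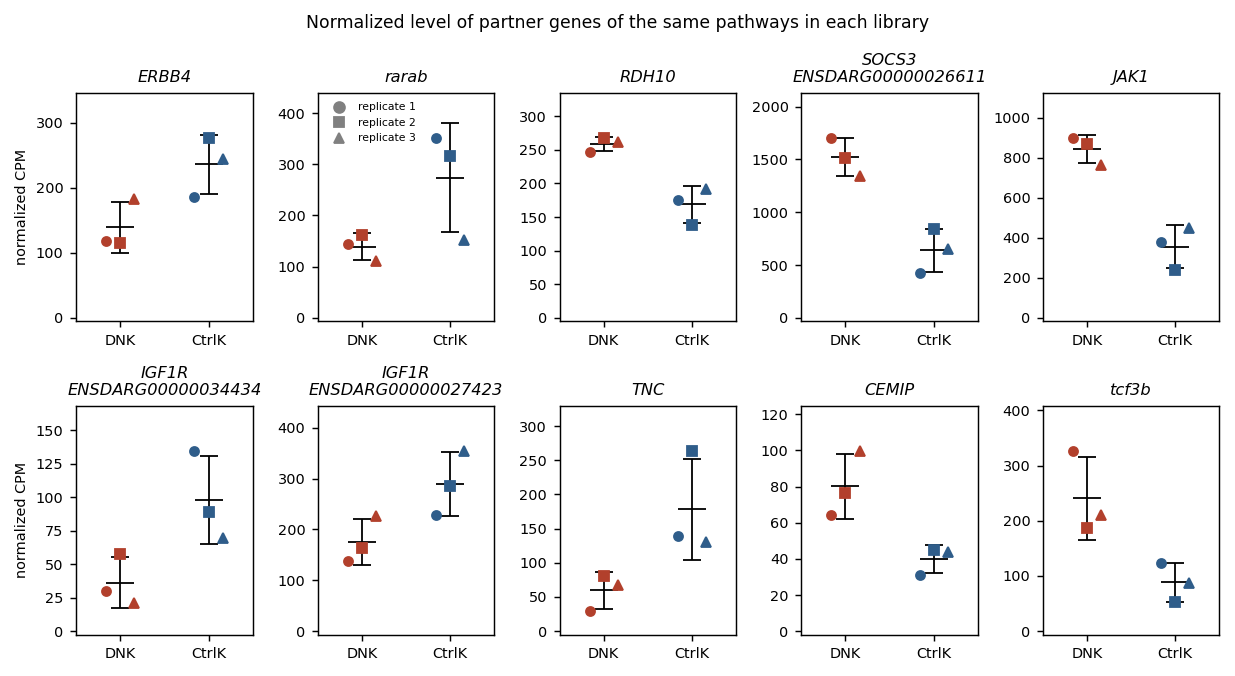
Normalized CPM (vertical axes, linear) of 10 partner genes in the 3 DNK and the 3 CtrlK libraries, with mean and SD bars. SOCS3, JAK1 and tcf3b passed the test and were higher in DNK. The other 7 did not pass, and among them the groups overlap for rarab. The 10 were picked by hand from the named partner genes, and most of those with overlapping groups are not shown. Over all pathway lists the groups were separate for 17 of 78 tested IDs, against 30.8% of all tested genes.

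Endocardial transcription factors were mostly below the depth of these libraries. nfatc1, a calcineurin-activated factor that marks endocardium and is needed for valve formation in the mouse, was the single one of 8 that could be tested. It had 64.3, 86.1 and 78.6 CPM in DNK, from 13, 18 and 15 counts, and 46.6, 35.7 and 48.1 CPM in CtrlK, from 9, 8 and 11 counts. All DNK libraries were above all CtrlK libraries, but with so few counts the 1.75-fold difference had a 95% interval of 0.91 to 3.35 (log2 fold change 0.81 ± 0.44 SE, adjusted p = 0.269, edgeR). Scaled to the 200 most abundant genes, with the median of all tested genes at −0.86, its log2 fold change was 0.04 (adjusted p = 0.953, edgeR). Of 6 tested IDs for calcineurin, its inhibitors and other Nfat factors 0 passed by edgeR (0 at an unadjusted p below 0.05), with a median of −0.40. Those with the smallest p were RCAN3, a calcineurin regulator (−0.64 ± 0.49 SE, adjusted p = 0.441, edgeR, and −1.27 without DNK replicate 1), and nfat5a (−0.53 ± 0.43 SE, adjusted p = 0.471, edgeR).

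The Gata factors, zinc-finger regulators of heart and endothelial development, gave few counts. gata5, which zebrafish need to form endocardium and myocardium, had 5, 11 and 3 counts in DNK and 0, 8 and 6 in CtrlK, and gata6 had 2, 5 and 1 in DNK and 2, 4 and 1 in CtrlK. gata4 had 0 counts in DNK and 2 in CtrlK, and gata2a had 2 and 4. The blood and endothelial regulator tal1 had 1 count in DNK and 0 in CtrlK. tbx20, a T-box factor of heart development, had 5, 4 and 1 counts in DNK and 4, 8 and 7 in CtrlK. After division by the summed gene counts of each group, before TMM scaling, the ratio of DNK to CtrlK was 0.48 with a 95% counting interval of 0.20 to 1.09. The ratios of counts given below for other untested genes were scaled in the same way. TMM factors were 0.890 to 0.951 in DNK and 1.06 to 1.11 in CtrlK. These ratios and their intervals are therefore lower than on the scale of normalized CPM, and whether an interval includes a ratio of 1 can depend on it. twist1b, a regulator of mesenchymal state, had 1 count in DNK and 3 in CtrlK. None of these counts separates the groups, and these and later counting intervals cover counting error only.

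Among 5 tested partners of Gata, Tal1 and Tbx factors 1 rose (4.72% of all tested genes rose) and 4 did not pass, with a median of 0.64. tcf3b, an E protein that pairs with Tal1, had 326, 187 and 210 CPM in DNK and 124, 53.6 and 87.4 CPM in CtrlK (log2 fold change 1.45 ± 0.40 SE, adjusted p = 0.0434, edgeR). It no longer passed when any one of DNK replicates 1, 2 and 3 was left out (adjusted p = 0.180, 0.0622 and 0.0750, edgeR), nor without CtrlK replicate 2 (0.130) or 3 (0.0752), nor with library size alone (0.0737), nor scaled to the 200 most abundant genes, where the log2 fold change was 0.62. The log2 fold change without 1 library was 1.17 to 1.76. Its other copy tcf3a, chosen after its values were seen, was at −1.25 ± 0.56 on the log2 scale (SE, adjusted p = 0.180, edgeR). Of 3 tested genes of endothelial-to-mesenchymal transition 0 passed by edgeR (0 at an unadjusted p below 0.05), with a median of −0.14. For cdh5, the endothelial cadherin, the log2 fold change was 0.46 ± 0.32 (SE, adjusted p = 0.395, edgeR), and for zeb1a, a repressor of epithelial genes, it was −0.45 ± 0.50 (adjusted p = 0.609).

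Among the KLF genes, 2 of 6 IDs could be tested, and the groups overlapped for both. klf2a, the flow-responsive factor of zebrafish endothelium and endocardium, had 173, 177 and 157 CPM in DNK and 186, 232 and 127 CPM in CtrlK. The 3 DNK libraries lay inside the range of the CtrlK libraries. The log2 fold change was −0.10 ± 0.35 (SE, adjusted p = 0.880, edgeR), and the 95% interval of the fold was 0.55 to 1.56. It was positive, at 0.05, when libraries were scaled to reads outside genes.

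klf6a, read from KLF6 (ENSDARG00000029072) and known as an injury-induced factor, had 109, 95.7 and 99.6 CPM in DNK and 98.3, 103 and 157 CPM in CtrlK. Here too the groups overlapped, with CtrlK replicate 3 the highest, and the log2 fold change was −0.24 ± 0.40 (SE, adjusted p = 0.747, edgeR) with a 95% interval of the fold of 0.47 to 1.53. klf2b, the other klf2 copy, had 9, 1 and 5 counts in DNK and 0, 0 and 5 in CtrlK, a scaled ratio of 2.76 with a 95% counting interval of 0.95 to 9.69. klf4, an endothelial factor also raised by flow, had 6 counts in DNK and 12 in CtrlK, a scaled ratio of 0.46 (0.14 to 1.32). The KLF11 IDs had 5 and 5 counts in DNK and 2 and 3 in CtrlK.

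Upstream of the KLF genes lie channels that sense flow and the CCM complex, which restrains the MEK5 to KLF pathway. Of 10 tested IDs from that pathway, with other KLF genes, 0 passed by edgeR (0 at an unadjusted p below 0.05), and their median log2 fold change was 0.06. CCM2L, a homolog of a CCM complex subunit, had 1.07 ± 0.68 (SE, adjusted p = 0.355, edgeR) from 13, 8 and 10 counts in DNK and 1, 4 and 11 in CtrlK, and without CtrlK replicate 3 it had 2.09. For the flow-sensing channel PIEZO1 the log2 fold change was 0.45 ± 0.37 (SE, adjusted p = 0.469, edgeR). heg1, the receptor that holds the CCM complex at endothelial junctions and whose loss dilates the zebrafish heart, was not tested. It had 8, 3 and 8 counts in DNK and 15, 9 and 23 in CtrlK, a scaled ratio of 0.37 with a 95% counting interval of 0.21 to 0.65. In normalized CPM DNK replicate 3 (41.9) was above CtrlK replicate 2 (40.2), so the groups overlapped, and edgeR with no filter gave an adjusted p of 0.595.

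**Figure D4:**
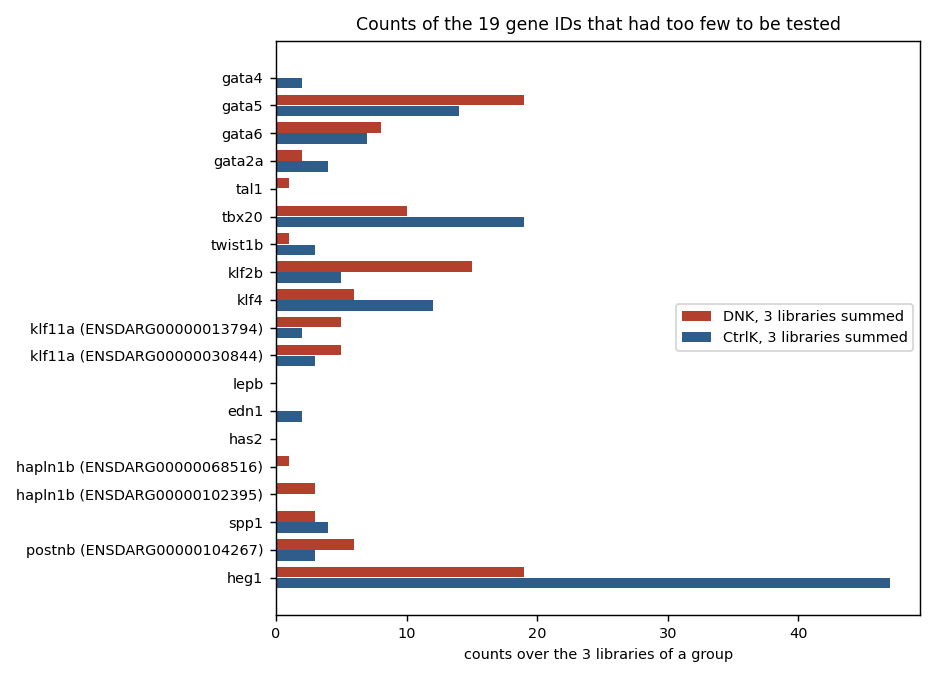
Counts summed over the 3 libraries of each group (horizontal axis, linear, from 0) for the 19 IDs that were not tested, DNK above CtrlK in each pair. The filter asks for a minimum count in enough libraries, not for a sum. The tested egr1 had 29 counts in DNK and 19 in CtrlK, fewer together than heg1. heg1 had the most, 19 in DNK and 47 in CtrlK, and lepb and has2 had 0 in both groups.

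Among matrix and adhesion genes the one whose groups were separate was hapln1a. It encodes a link protein that ties hyaluronan to proteoglycans, and had 44.5, 52.6 and 36.7 CPM in DNK and 103, 93.8 and 65.5 CPM in CtrlK. Every DNK library was below every CtrlK library, from 7 to 11 counts in DNK and 15 to 21 in CtrlK. The log2 fold change was −0.96 ± 0.45 (SE, unadjusted p = 0.0505, adjusted p = 0.203, edgeR). Scaled to the 200 most abundant genes the adjusted p was 0.0224 (edgeR) with a log2 fold change of −1.77. Relative to the median of all genes that was −0.91, against −0.88 under the main scaling, a difference that is nearly fixed as for igf2b. The HAPLN1 IDs had 1 and 3 counts in DNK and 0 in CtrlK.

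has2, the main hyaluronan synthase of the endocardial cushion, had 0 counts in all libraries, with the same limit as for lepb. Periostin, a matrix protein of activated fibroblasts read from POSTN (ENSDARG00000043806), had 59.3, 76.6 and 57.7 CPM in DNK and 82.8, 35.7 and 61.2 CPM in CtrlK (log2 fold change 0.12 ± 0.46 SE, adjusted p = 0.895, edgeR). The DNK values lay inside the CtrlK range, and the other POSTN ID had 6 counts in DNK and 3 in CtrlK. spp1, the osteopontin gene of activated macrophages, had 3 counts in DNK and 4 in CtrlK. cdh2, the N-cadherin gene of muscle and mesenchyme, had 114, 120 and 194 CPM in DNK and 166, 183 and 109 CPM in CtrlK (log2 fold change −0.10 ± 0.38 SE, adjusted p = 0.892, edgeR). Its groups overlapped, and the sign was positive, at 0.06, when scaled to reads outside genes.

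Of 10 tested IDs for hyaluronan turnover and provisional matrix 0 passed by edgeR (2 at an unadjusted p below 0.05), with a median of −0.25. These 10 include POSTN ENSDARG00000043806, described above, because its name stands for either periostin copy. TNC, the tenascin C gene of injury matrix, had 29.7, 81.4 and 68.2 CPM in DNK and 140, 264 and 131 CPM in CtrlK, so that all DNK libraries were lower (ENSDARG00000078362, log2 fold change −1.57 ± 0.47 SE, adjusted p = 0.0567, edgeR). It lay close to the threshold and passed by DESeq2 (adjusted p = 0.0486), with library size alone (0.0371, edgeR) and scaled to the 200 most abundant genes (0.00927, log2 fold change −2.34). Without 1 library the adjusted p was 0.0594 to 0.206, and the other TNC ID, not tested, had 22 counts in each group. CEMIP, which takes part in hyaluronan breakdown, had 80.2 ± 17.9 CPM in DNK and 39.8 ± 7.60 in CtrlK (SD, n = 3 each, log2 fold change 0.99 ± 0.45 SE, adjusted p = 0.185, edgeR). Of 11 tested cadherin and junction genes 0 passed by edgeR (0 at an unadjusted p below 0.05), with a median of 0.05. The junction scaffold genes TJP1 and AFDN had log2 fold changes of 1.21 ± 0.59 (SE, adjusted p = 0.218, edgeR, and 1.86 without CtrlK replicate 2) and −0.81 ± 0.40 (adjusted p = 0.222).

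The immediate-early genes egr1, egr3 and nr4a1, transcription factors induced within minutes by growth factors, stress or tissue handling, were all tested. egr1 had 59.3, 62.2 and 21.0 CPM in DNK and 56.9, 22.3 and 13.1 CPM in CtrlK (log2 fold change 0.66 ± 0.66 SE, adjusted p = 0.568, edgeR). The log2 value was 1.40 with CtrlK replicate 1 left out and 0.31 with CtrlK replicate 3 left out. nr4a1 had 84.0, 129 and 36.7 CPM in DNK and 67.3, 53.6 and 30.6 CPM in CtrlK (0.73 ± 0.53 SE, adjusted p = 0.410, edgeR). egr3 had 49.4, 57.4 and 21.0 CPM in DNK and 82.8, 67.0 and 52.4 CPM in CtrlK (−0.64 ± 0.49 SE, adjusted p = 0.441, edgeR). All 3 genes had overlapping groups, and in each the lowest DNK library was DNK replicate 3 and the lowest CtrlK library was CtrlK replicate 3.

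That order was seen in 3 of the 11 tested immediate-early genes and regulators, namely these, and in 419 of all 3792 tested genes. The 3 are the genes from which the order was described, so this count does not test it. Of the 8 others 0 passed by edgeR (1 at an unadjusted p below 0.05), with a median of 0.88; the list also holds mki67, a proliferation gene. ier2b had 59.3, 191 and 99.6 CPM in DNK and 10.3, 26.8 and 52.4 CPM in CtrlK (log2 fold change 1.92 ± 0.60 SE, adjusted p = 0.0632, edgeR). It passed with no filter (adjusted p = 0.0211, edgeR) and without CtrlK replicate 3 (0.0428, log2 fold change 2.60), and without DNK replicate 2 the log2 fold change was 1.36 (0.226). NR4A3, a paralog of nr4a1, had one of 0.83 ± 0.44 (SE, adjusted p = 0.260, edgeR). For these 2 genes each DNK library was above each CtrlK library.

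Set side by side as sums of normalized CPM over all IDs of a role, the 6 signal IDs came to 1615 ± 159 in DNK and 1046 ± 76.6 in CtrlK (SD, n = 3 each). Of the 1647 counts of that sum igf2b held 56.5% and aldh1a2 held 488. The means of il11a were 127 CPM in DNK and 124 in CtrlK, and those of nrg1 were 24.2 and 92.1. The sum thus follows igf2b and aldh1a2 and does not show a rise of the signals as a class. The 6 KLF IDs came to 322 ± 21.0 in DNK and 336 ± 15.3 in CtrlK, and the 8 transcription factor IDs to 144 ± 37.9 in DNK and 118 ± 23.0 in CtrlK. The 9 matrix and adhesion IDs came to 305 ± 35.7 in DNK and 384 ± 53.5 in CtrlK, and the 3 immediate-early IDs to 173 ± 86.7 in DNK and 149 ± 55.6 in CtrlK. For the KLF, transcription factor and immediate-early sums the means differed by less than the larger SD. The matrix and adhesion sum had overlapping groups, with 346 in DNK replicate 3 and 345 in CtrlK replicate 3. Over all 12 pathway lists, with the 32 IDs left out, 3 of 78 tested IDs rose and 0 fell, which is 3.85% against 7.12% of all tested genes. With each library's ratio of reads outside genes as a covariate, which does not overlap between the groups, none of the 3 passed (SOCS3 adjusted p = 0.804, JAK1 0.954 and tcf3b 0.858, edgeR). Because that ratio largely follows the group, 1 of all 3792 tested genes passed in that fit. Failing to pass there was thus nearly fixed in advance and cannot decide anything about these 3. Their log2 fold changes in that fit were 1.34 for SOCS3, 0.33 for JAK1 and 1.38 for tcf3b.

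Markers of other cells moved with some of these values. Macrophage and neutrophil markers, 12 IDs with lyz at 0, held 0.140% to 0.157% of gene counts in DNK and 0.0665% to 0.128% in CtrlK, and 12 fibroblast and mural IDs, none at 0, held 0.153% to 0.166% in DNK and 0.125% to 0.146% in CtrlK. Like the endothelial share, both were higher in each DNK library, with an exact two-sided permutation p of 0.1, the smallest that 3 libraries against 3 allow. All 5 tested macrophage and neutrophil IDs had a positive log2 fold change. Most counts were of cd74a and cd74b (273 and 352 of 957 in DNK, 151 and 216 of 554 in CtrlK). Both untested CXCR4 IDs had fewer counts in DNK (23 and 4, against 26 and 14). Of 8 tested fibroblast and mural IDs 7 had a positive value, largest for COL1A2 (171 in DNK, 63 in CtrlK) and PDGFRB (124 and 41). The tested col1a1a (94 and 133) and untested CSPG4 (10 and 30) went the other way. Lymphocyte markers, 11 IDs with cd79a at 0, held 0.0170% to 0.0198% in DNK and 0.0410% to 0.0591% in CtrlK (exact permutation p = 0.1). Most of that gap was 1 gene, cd8a, with 79 of their 118 counts in DNK and 221 of 278 in CtrlK. No other ID had more than 18 counts in a group, and RAG2 went the other way (13 in DNK and 5 in CtrlK). Shares of epicardial markers, which bear on aldh1a2 and periostin, were 0.0444% to 0.0551% in DNK and 0.0503% to 0.0555% in CtrlK. Of 9 epicardial IDs 2 were at 0, wt1b and an MDK copy, and TCF21 and TBX18 together had 4 counts in DNK and 4 in CtrlK. Cardiomyocyte (0.0721% to 0.0963% in DNK and 0.0661% to 0.0863% in CtrlK), erythrocyte (0.00698% to 0.0134% and 0.00482% to 0.00831%) and thrombocyte shares (0.0390% to 0.0578% and 0.0572% to 0.0929%) overlapped between DNK and CtrlK. Of 6 tested cardiomyocyte IDs, however, 4 had a positive log2 fold change, with a median of 0.97. Among them atp2a2a rose (43 counts in DNK and 11 in CtrlK, adjusted p = 0.0453, edgeR), as did 4.72% of all tested genes. Their groups were separate for 3 of the 6, against 30.8% of all tested genes. RYR2 (115 and 176) and TNNT2 (68 and 103) went the other way. The part of these shares in the values above was not tested, and in such bulk RNA fewer cells of a type cannot be told apart from less RNA per cell.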

How the data were processed

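The authors deposited 1 table of raw counts per library, a whole number for each of 32520 Ensembl gene IDs and 5 rows that name no gene. Genome build GRCz11 is named in the submitters' processing notes, as are HTSeq 0.6.1, DESeq2 1.22.2, HISAT2 2.1.0 and Trim Galore 0.6.0, with no role or order. The sources used here do not state the strand setting or annotation, and copies and antisense partners may share reads. The rows that name no gene held 98.5% ± 0.00638 of the counts in DNK and 98.8% ± 0.108 in CtrlK (SD, n = 3 each), of which reads under the quality minimum were the most. Library sizes and tests of the main fit do not include them. Their sum is what the alternatives call reads outside genes. Amplification (MALBAC, per the labels) had no molecular identifiers, so counting intervals are not over independent molecules.

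Groups follow the sample titles. Genes kept by filterByExpr (3792) were tested with edgeR 4.0.16 (TMM, glmQLFit with robust = TRUE, glmQLFTest, R 4.3.3), with Benjamini-Hochberg adjustment over all of them and a threshold of 0.05. SE was computed from the log2 fold change and the root of F, and 95% intervals use the fit's degrees of freedom. Normalized CPM divides counts by TMM-scaled library sizes. Marker shares used an exact permutation test over libraries. Names came from a table that names 29201 IDs, by symbol (24 of the 29 genes) or by human-style names that lack a copy letter (5). Steps were tested on counts simulated with a single dispersion for all genes. Of 82 tested genes changed 2-fold 6.1% passed, and of 88 changed 4-fold 84.1% passed. Of 83 calls, 4 were of unchanged genes. Alternatives used DESeq2 1.42.0, limma 3.58.1, other scalings and filters, a covariate, a replicate block and fits without each library. Named genes were all 29 and, from each pathway list, up to 4 that passed or else the 2 with the smallest p. The genes, lists and tests were chosen with earlier results of these data known. No pair of libraries agreed within sampling noise (chi-square per degree of freedom of 3.08 to 9.18).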

Additional observations from a re-analysis of the deposited data

How the results depend on the processing

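Depth limits these results: 19 of 32 IDs were not tested, and 95% intervals of the tested genes span folds of 2 or more. In simulated data 6.1% of genes changed 2-fold passed, so a gene that did not pass here may still differ 2-fold. That simulation gave 83 calls against 270 in these data. With fewer calls the adjustment is stricter, so 6.1% may understate the share found here. The count of the 13 genes that passed was 0, and 1 with DESeq2 (igf2b), scaled to reads outside genes (igf2b) or scaled to the 200 most abundant genes (hapln1a). Of all 3792 tested genes, 303, 291 and 1079 passed in these 3 settings. The number of all genes passing was 270, and 66 to 285 without 1 library (53 to 211 higher in DNK, 13 to 74 lower), with 66 without DNK replicate 1, 96 without CtrlK replicate 2, 130 without DNK replicate 2, 149 without CtrlK replicate 1 and 155 without DNK replicate 3. Scaled to the 200 most abundant genes it was 1079 (55 higher and 1024 lower, so 5.10% were higher against 66.3%), and with the ratio of reads outside genes as a covariate it was 1 (1 higher, 0 lower, 228 at an unadjusted p below 0.05 by edgeR). That ratio does not overlap between the groups, so this fit can hardly separate it from the group and few genes could pass. Other changes were 164 lower with library size only (42.5% higher), 60 lower scaled to reads outside genes (79.4% higher), 283 higher with no filter, 106 higher with at least 50 counts in 3 libraries and 46 lower with limma-voom. The median log2 fold change of the 13 genes was 0.03. It was −0.18 with library size only, −0.73 scaled to the 200 most abundant genes, 0.17 scaled to reads outside genes, 0.19 with no filter (30 IDs), 0.58 with at least 50 counts (2 IDs), 0.51 with the covariate and −0.053 to 0.15 without 1 library. Relative to the median of all tested genes, which these 3 scalings put at −0.30, −0.86 and 0.07, it was 0.11, 0.13 and 0.11, and 0.11 under the main scaling. A change of scaling shifts all genes nearly alike, so these relative values could hardly move. Signs turned for the values below, none of which had passed. Scaled to the 200 most abundant genes these were il11a (−0.73), postnb (−0.68), egr1 (−0.18), nr4a1 (−0.086), PIEZO1 (−0.37), adam10a (−0.53), RDH10 (−0.17) and cdh5 (−0.28). Under the same scaling, which moved the median of all tested genes to −0.86, 8 of the named partner IDs besides TNC passed as lower. They were both IGF1R IDs (−2.23, adjusted p = 0.0161, and −1.48, 0.0139, edgeR), rarab (−1.82, 0.0139), ERBB4 (−1.53, 0.0145), AFDN (−1.56, 0.0192), EDNRA (−1.14, 0.0301), nfat5a (−1.29, 0.0416) and RCAN3 (−1.43, 0.0433). Partner IDs that are not named were not read under that scaling, where 1024 of all 3792 tested genes passed as lower. With library size only the turned signs were il11a (−0.18) and postnb (−0.11). Scaled to reads outside genes they were klf2a (0.055) and cdh2 (0.061), and with no filter klf2a (0.016) and cdh2 (0.023). With the covariate they were klf2a (1.13), nrg1 (5.52), il11a (−0.34), postnb (−0.14), cdh2 (0.97), egr3 (0.17), CCM2L (−1.54), adam10a (−0.41), rarab (0.88), cdh5 (−0.92) and ier2b (−0.14). Without 1 library the ranges that crossed 0 were −0.38 to 0.068 for cdh2, −0.14 to 0.40 for postnb, −0.21 to 0.18 for il11a, −0.29 to 0.13 for klf2a and −0.36 to 0.034 for klf6a. Of 532 values of the 35 named genes over the alternatives, 459 kept their sign and side of the threshold. The causes were not tested. With the replicate number as a block 252 genes passed, 0 of the 13 among them, and TNC (−1.58, adjusted p = 0.0494, edgeR) and ier2b (1.97, 0.0408) passed as well. Same-numbered libraries did not deviate together (correlations of −0.105, −0.00297 and −0.0418). Such correlations cannot show whether they shared a batch, and no label says what the numbers mark, so pairing is unknown.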
